A study of Mus musculus with 30 samples.

Results

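Cyclins and cyclin-dependent kinases (CDKs) drive the cell cycle, and 10 of their genes were placed here on a map of replication initiation in mouse embryonic stem cells. The genes are 8 cyclins (Ccnd1, Ccnd2, Ccnd3, Ccne1, Ccne2, Ccna2, Ccnb1 and Ccnb2) and 2 kinases (Cdk1 and Cdk2), listed by name. They were chosen with earlier results of these data known. All 10 were found among the 20558 protein-coding genes placed on chromosomes 1 to 19. The series holds 30 samples of the established embryonic stem cell line E14TG2a, most of them made to follow old and new histones behind the fork in wild-type cells and in clones with changes in MCM2. The single sample used here is a wild-type OK-seq library, labelled for 2 min with the thymidine analogue EdU at 10 µM in cells kept in LIF with GSK3 and MEK inhibitors. The other 29 samples, the MCM2 mutants among them, were not analysed here. With 1 library there was no replicate error, the depth is unknown because the list carries no counts, and every value below describes that library.

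OK-seq sequences Okazaki fragments, the short pieces of the lagging strand, and so shows in which direction forks travel. Where leftward and rightward forks part, the list names an initiation zone (mm10) with a breakpoint bin of 1 kb between a left and a right edge. The distances from the breakpoint to the edges are called arms here, and the width is their sum, 1 kb less than the span from first to last base. The list holds 2844 zones with a median width of 112 kb (36 to 200 kb), and no arm is longer than 100 kb. Some entries share both edges and differ only in the breakpoint, and each entry counts as a zone here.

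A cyclin has no enzymatic activity of its own; it binds a CDK, switches the kinase on and directs it to its substrates. The D-type cyclins work with Cdk4 and Cdk6 and phosphorylate the retinoblastoma protein, which frees the E2F factors. The E-type cyclins with Cdk2 bring cells into S phase, cyclin A2 with Cdk2 and Cdk1 acts in S phase and G2, and the B-type cyclins with Cdk1 drive mitosis. CDK activity is also what allows licensed replication origins to fire and what stops them from being licensed again. Embryonic stem cells are known for a short G1 phase and for high CDK activity through most of the cycle.

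Most of the cyclin and CDK genes lay in or beside an initiation zone. Of the 10 genes, 6 had an end inside a zone, namely Ccnd2, Ccnd3, Ccne1, Ccnb1, Cdk1 and Cdk2, against 32.4% of all protein-coding genes. All of these 6 lay wholly inside their zone, which holds for 18.7% of protein-coding genes and for 57.5% of those with an end inside. Both shares cover genes of every length, and a long gene is less likely to fit inside a zone. Ccnd1 was 4.93 kb from a zone edge, which brought the count within 20 kb to 7 of 10, against 38.5% of protein-coding genes. The remaining 3, Ccnb2, Ccne2 and Ccna2, lay 58.4, 124 and 235 kb from the nearest edge. Among protein-coding genes with lengths in the range of the 10 (7.11 to 94.6 kb), 35.5% reached into a zone with an end and 42.2% came within 20 kb of one. No test was made on these shares, since 10 named genes are no replicates of a condition.

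**Figure D1:**
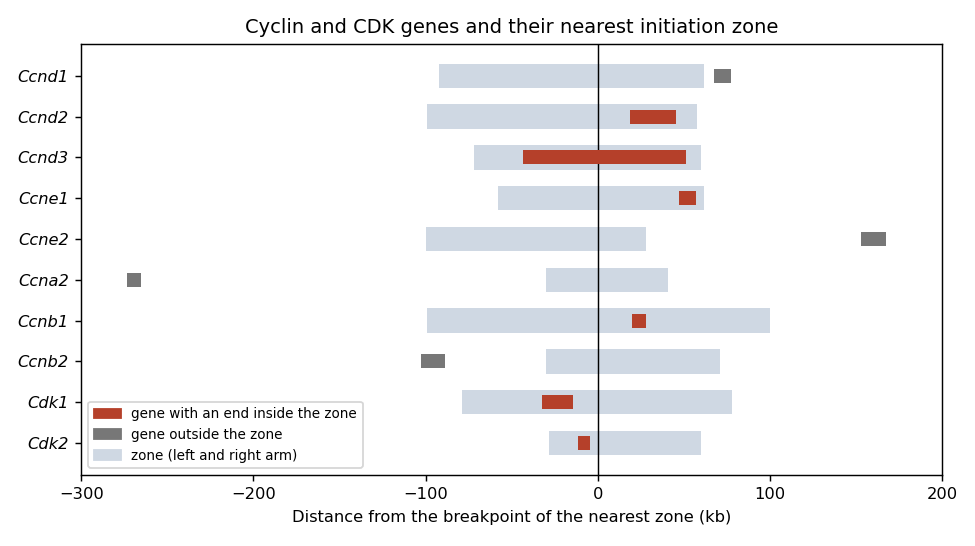
Position of each cyclin and CDK gene relative to the breakpoint of its nearest zone. The horizontal axis gives the distance from the breakpoint in kb, pale bars are the zone arms, red bars are genes with an end inside the zone and grey bars genes outside it. Cdk2 sits 4.45 kb left of its breakpoint, Ccnd3 covers its breakpoint, and Ccna2 lies farthest away.

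By distance to the nearest breakpoint, the order from near to far was Cdk2, Cdk1, Ccnd2, Ccnb1, Ccnd3, Ccne1, Ccnd1, Ccnb2, Ccne2 and Ccna2. Distances run from the nearer gene end to the middle of the breakpoint bin. The median over the 10 genes was 45.5 kb, against 129 kb over all protein-coding genes, and 8 of the 10 were nearer than that median gene. Ccnd2 and Ccnb1, the closest neighbours in this order, differed by 1.58 kb, little more than a bin. Among genes with an end inside a zone, the medians were 19.5 kb for the 6 named genes and 23.0 kb for all such protein-coding genes.

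**Figure D2:**
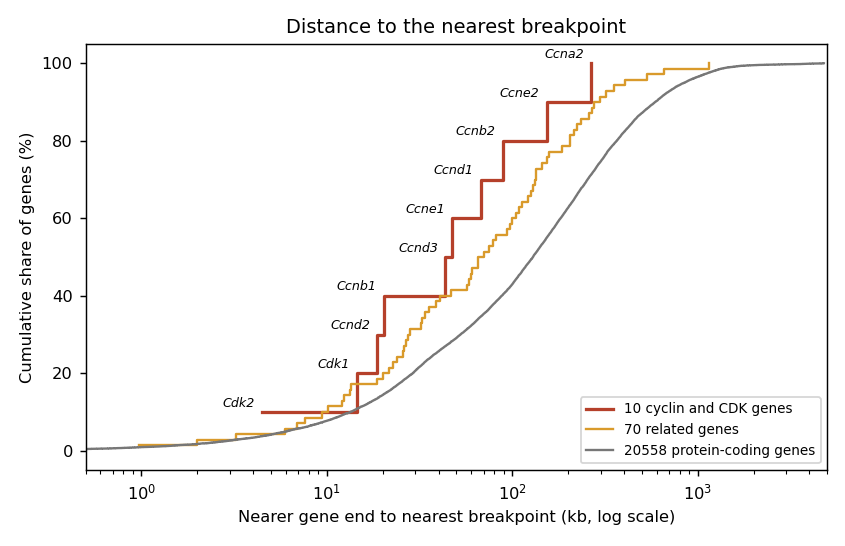
Cumulative share of genes (vertical axis, %) against the distance of the nearer gene end to the nearest breakpoint (horizontal axis, kb, log scale). The red line shows the 10 named cyclin and CDK genes, the orange line 70 related genes and the grey line 20558 protein-coding genes. The red steps reach the 50% level at shorter distances than the grey line, whose median is 129 kb.

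By the nearer gene end, the genes of the S-phase and mitotic kinases were the nearest of the 10 to a breakpoint. From the middle of the gene Ccnd3 was nearest, at 3.87 kb against 8.01 kb for Cdk2, and to the point midway between zone edges Cdk1 (14.1 kb) and Ccnb1 (19.7 kb) were nearer than Cdk2 (20.4 kb). Cdk2, the partner of cyclins E and A, spans chromosome 10 from 128697938 to 128705051 on the minus strand. Its zone ran from 128681001 to 128770000, was 88 kb wide and had a left arm of 28 kb and a right arm of 60 kb. The transcription start of Cdk2 faced the breakpoint at 4.45 kb, a distance that 3.76% of protein-coding genes matched or undercut with either end. Cdk1, the mitotic kinase, spans chromosome 10 from 69335146 to 69352912, also on the minus strand. Its zone, from 69288001 to 69446000, was 157 kb wide with arms of 79 and 78 kb, and 2.04% of zones were as evenly split or more so. The Cdk1 start lay 14.6 kb left of the breakpoint. Along the left arm, Cdk2 took up 15.9 to 41.3% of the way from breakpoint to edge and Cdk1 18.5 to 41.0%. Both kinase genes thus lay on the left arm, with the start toward the breakpoint and transcription running away from it.

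The promoters of Cdk2 and Cdk1 are shown because their starts face the breakpoint, and those of Ccnb1 and Ccnb2 because these B-type cyclin genes are on opposite sides of the zone call. They come from RefSeq (GRCm38.p6) and run 5′ to 3′ from 250 bases before the start to 50 after it, all read on the minus strand. The regions are chr10:128705002-128705301 for Cdk2, chr10:69352863-69353162 for Cdk1, chr13:100786437-100786736 for Ccnb1 and chr9:70421505-70421804 for Ccnb2. Capitals mark matches, on either strand, of TTTGAA, the core of the cell cycle homology region of late cell cycle promoters, of CCAAT, the box bound by NF-Y, and of 2 forms of the E2F site, TTTCCCGC and TTTGGCGC.
Cdk2: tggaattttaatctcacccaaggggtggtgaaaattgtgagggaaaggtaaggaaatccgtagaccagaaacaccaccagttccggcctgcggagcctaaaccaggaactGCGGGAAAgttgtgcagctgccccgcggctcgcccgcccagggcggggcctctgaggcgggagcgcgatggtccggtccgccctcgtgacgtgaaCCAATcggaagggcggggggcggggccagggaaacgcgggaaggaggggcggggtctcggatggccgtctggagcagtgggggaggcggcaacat
Cdk1: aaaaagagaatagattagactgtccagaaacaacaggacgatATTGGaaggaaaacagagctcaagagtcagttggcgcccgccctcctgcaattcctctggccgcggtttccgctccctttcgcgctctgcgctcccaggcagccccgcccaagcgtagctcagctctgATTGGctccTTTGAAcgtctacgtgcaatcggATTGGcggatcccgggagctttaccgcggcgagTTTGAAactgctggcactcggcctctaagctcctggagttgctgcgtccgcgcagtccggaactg
Ccnb1: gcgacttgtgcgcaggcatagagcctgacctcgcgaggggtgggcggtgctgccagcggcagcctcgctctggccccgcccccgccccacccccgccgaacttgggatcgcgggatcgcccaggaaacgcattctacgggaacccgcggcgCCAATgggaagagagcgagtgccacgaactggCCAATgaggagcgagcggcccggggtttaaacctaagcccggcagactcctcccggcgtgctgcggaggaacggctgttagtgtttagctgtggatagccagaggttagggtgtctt
Ccnb2: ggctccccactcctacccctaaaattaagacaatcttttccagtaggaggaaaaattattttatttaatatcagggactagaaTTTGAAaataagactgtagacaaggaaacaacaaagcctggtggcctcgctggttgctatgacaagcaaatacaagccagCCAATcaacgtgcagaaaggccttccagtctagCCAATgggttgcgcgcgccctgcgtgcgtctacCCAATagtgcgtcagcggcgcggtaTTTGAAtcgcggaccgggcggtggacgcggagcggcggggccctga

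The Cdk1 and Ccnb2 promoters had the same counts of these letters, with 2 matches of TTTGAA and 3 of CCAAT each. In Cdk1 the CCAAT matches were all on the other strand. Ccnb1 had 2 CCAAT matches and Cdk2 had 1, beside 1 match of TTTCCCGC on the other strand, at bases 111 to 118. No promoter of a named gene matched TTTGGCGC, and no matches overlapped each other. Of the 32851 promoters of this length in the table, 17.9% held TTTGAA, 37.4% CCAAT, 1.07% TTTCCCGC and 0.514% TTTGGCGC. Cdk1 lay inside a zone and Ccnb2 outside, so the same motif counts occurred on both sides of the zone call. The table held 7 promoters for 6 of the 10 genes. GC content ran from 51.7% in Ccnb2 to 76.0% in Ccne1, against a median of 52.7% over all promoters. A match of letters is a description and not a site shown to be bound.

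The D-type cyclin genes all lay in or next to a zone. Ccnd2 spans chromosome 6 from 127125162 to 127152188 and lay on the right arm of a zone of 157 kb (127007001 to 127165000), 18.7 kb from the breakpoint. The distance was 39.2 kb when taken to the point midway between the edges, since the left arm measured 99 kb and the right arm 58 kb. Ccnd3, on chromosome 17 from 47505051 to 47599689, is the longest of the 10 genes at 94.6 kb. It was also the only gene of the 10 to hold a breakpoint in its body, which 4.02% of protein-coding genes did. Its zone (47476001 to 47609000, 132 kb wide) enclosed the whole gene. The RefSeq promoter table gives 2 starts for Ccnd3, and the breakpoint fell between them, 43.4 kb downstream of the first and 45.0 kb upstream of the second. From the middle of the gene the breakpoint was only 3.87 kb away. Ccnd1, on chromosome 7 from 144929931 to 144939831, lay just beyond the right edge of a zone from 144770001 to 144925000, with 67.4 kb to its breakpoint. That zone was 154 kb wide, and the next zone to the right began 168 kb past the gene, so Ccnd1 sat at 5.40% of a gap of 183 kb between zones.

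The zones of Ccnd1 and Ccnd2 each held genes of the fibroblast growth factor (FGF) family, which code for secreted signalling ligands. Fgf3, Fgf4 and Fgf15 had ends in the Ccnd1 zone, and its breakpoint lay in the body of Fgf4, a ligand that stem cells secrete and that acts through the ERK pathway. LTO1, which also had an end in that zone, overlapped Ccnd1 by 0.818 kb. In the Ccnd2 zone, Fgf6 and Fgf23, which codes for a hormone of phosphate balance, lay on the left arm. Its breakpoint fell in Tigar, a gene of sugar phosphate metabolism, which lay 15.6 kb from Ccnd2. In both places the FGF genes lay on the same side of the cyclin gene, with the nearest 29.0 kb from Ccnd1 (Fgf15) and 42.9 kb from Ccnd2 (Fgf23). Of 20 FGF genes placed, 11 had an end inside a zone, against 32.4% of protein-coding genes, and these fell into 8 zones. Only 2 of those 8 zones held 2 or more FGF genes, and they were the Ccnd1 and Ccnd2 zones. This count was made after the shared neighbours had been seen and includes those FGF genes, so 11 of 20 is not an independent share. The Ccnd3 zone held no FGF gene; the other genes with an end in it were Taf8, a subunit gene of the general transcription factor TFIID, and Bysl, a gene of ribosome assembly.

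**Figure D3:**
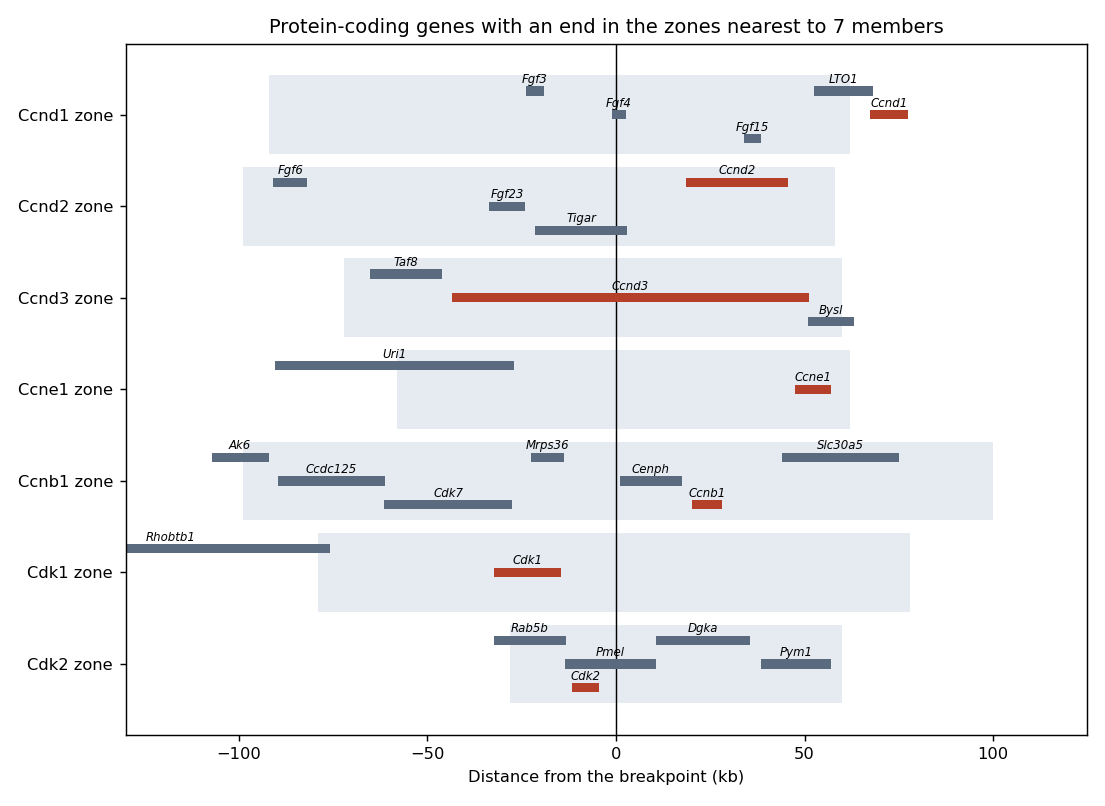
Protein-coding genes with an end in the zone nearest to Ccnd1, Ccnd2, Ccnd3, Ccne1, Ccnb1, Cdk1 and Cdk2, by distance from the breakpoint (horizontal axis, kb). Pale boxes are zones, red bars the named cyclin or CDK gene and dark bars the other genes. FGF genes appear in the Ccnd1 and Ccnd2 zones, and Cdk7 shares the Ccnb1 zone.

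The E-type pair differed in position. Ccne1, on chromosome 7 from 38097984 to 38107490, lay inside a zone of 120 kb (37992001 to 38113000), but far out on its right arm. It covered 76.6 to 91.9% of the way from breakpoint to edge, and its nearer end was 47.5 kb from the breakpoint. Uri1, a gene of a prefoldin-like protein, was the only other gene with an end in that zone. Ccne2, on chromosome 4 from 11190433 to 11204779, lay 124 kb beyond the right edge of its nearest zone (10937001 to 11066000) and 153 kb from the breakpoint. That zone was among the most lopsided, with a left arm of 100 kb, at the limit of the list, and a right arm of 28 kb. Its longer arm made up 78.1% of the width, a share that 93.1% of zones did not exceed. The nearest other breakpoint was 1092 kb away from it, and Ccne2 lay at 13.6% of a gap of 967 kb between zones. Ndufaf6, an assembly factor gene of respiratory complex I, and Plekhf2 had ends in that zone.

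The cyclin A2 gene was the farthest from a zone, and the B-type pair was split. Ccna2 (chromosome 3, 36564865 to 36573038) lay 235 kb from a narrow zone of 71 kb (36808001 to 36880000) and 265 kb from its breakpoint. Only 16.7% of zones were that narrow or narrower. The gap between zones around Ccna2 measured 1028 kb, against a median of 508 kb over 2737 such gaps, and the gene stood 76.7% of the way across it. That median counts each gap once, although a long gap can hold more genes. Ccnb1, on chromosome 13 from 100778739 to 100786486, lay on the right arm of one of the widest zones of the list, from 100659001 to 100859000. This zone was 199 kb wide with arms of 99 and 100 kb, and 11 of the 2844 zones were at least as wide. An arm at the limit of 100 kb occurred in 9.56% of zones, and the true extent of such a zone may be larger than listed. The nearer, downstream end of Ccnb1 was 20.2 kb from the breakpoint and its start 28.0 kb. Ccnb2 (chromosome 9, 70407689 to 70421554) lay 58.4 kb left of a zone from 70480001 to 70582000. The space between the zones on either side of Ccnb2 measured 251 kb, shorter than the median gap, and the gene stood 74.0% of the way across it. Rnf111, a ubiquitin ligase gene of TGF-beta signalling, and Sltm had ends in the zone beside Ccnb2.

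The Ccnb1 zone was also the most gene-rich of those that held a named gene. The median over the zones that held a named gene was 3.5 protein-coding genes with an end inside. Over the zones in which protein-coding genes lie, counted once per gene, the median was 4. The Ccnb1 zone held ends of 7. Cenph, which encodes a kinetochore protein, lay next to the breakpoint at 1.17 kb, between it and Ccnb1. On the left arm were Mrps36, Cdk7, Ccdc125 and Ak6, and Slc30a5, a zinc transporter gene, lay on the right arm beyond Ccnb1. Cdk7, the kinase that activates other CDKs by phosphorylation, had its nearer end 27.6 kb left of the breakpoint. It was the only gene of the 6 related lists in a zone that held or neighboured a named gene. The Cdk2 zone held ends of 5 genes. Pmel, a pigment cell gene, covers both the breakpoint and the whole of Cdk2 in the gene table. Dgka, a lipid kinase gene, and Pym1 lay to the right, and Rab5b, which codes for a GTPase of endosomes, to the left. The Cdk1 zone held only Cdk1 and an end of Rhobtb1, at the far left edge.

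The zones that enclose named genes were mostly wider than the median zone. Their widths were 88 kb (Cdk2), 120 kb (Ccne1), 132 kb (Ccnd3), 157 kb (Cdk1 and Ccnd2) and 199 kb (Ccnb1), and 5 of these 6 exceeded the median zone of 112 kb. Their median was 144.5 kb, against 124 kb for the zones of all protein-coding genes with an end inside, counted once per gene. Since a wide zone catches more genes, the second value is the closer comparison, and the zones of Cdk2 and Ccne1 were below it. That value also takes in genes only partly inside a zone, whereas all 6 named genes lay wholly inside. The zone of Cdk2 was the narrow one, and 30.4% of all zones were as narrow or narrower.

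The surroundings of the named genes were neither more crowded nor richer in breakpoints than those of a typical gene. A median of 6 other protein-coding genes lay within 250 kb of the 10 genes, against 8 around all protein-coding genes, and the median number of breakpoints within 1 Mb was 3 for both. Crowding varied widely, with 2 neighbours at Cdk1, 15 at Ccnd3 and 25 at Cdk2. Of the 4 named genes with 0 to 4 neighbours (Ccnb2, Ccnd1, Ccne1 and Cdk1), 2 had an end inside a zone, against 34.8% of protein-coding genes so placed. Of the 4 with 5 to 9 neighbours (Ccna2, Ccnb1, Ccnd2 and Ccne2), 2 did so, against 34.4%. Ccnd3 fell in the class of 10 to 19 neighbours, where 30.8% of genes reached into a zone, and Cdk2 in that of 20 or more, where 27.4% did. Counts of 2 of 4 are too small to read a difference from these shares.

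**Figure D4:**
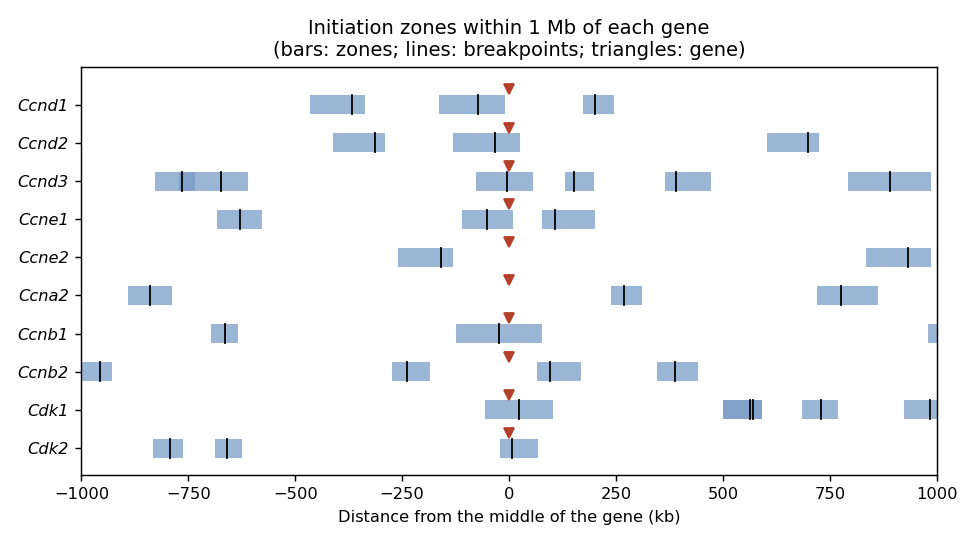
Initiation zones within 1 Mb of each named gene. The horizontal axis gives the distance from the middle of the gene in kb, bars are zones, black lines their breakpoints and red triangles the gene. Ccnb1 and Cdk2 each have 1 zone over the gene and a wide empty stretch to the right, whereas 6 breakpoints lie within 1 Mb of Ccnd3.

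Zones near the named genes were spaced unevenly. The breakpoint nearest to that of the Ccnd3 zone lay 154 kb away and that of the Ccne1 zone 158 kb, both short against a median of 359 kb over all zones. For Cdk1, Ccnb1 and Cdk2 the nearest other breakpoint was 540, 639 and 666 kb away. To the right of Cdk2 no zone began within 1221 kb of the gene. The Ccna2 and Ccne2 genes lay in gaps of 1028 and 967 kb. Of all gaps, each counted once whatever its length, 75.2% and 73.0% were as long or shorter. Ccnd1 and Ccnb2 lay in gaps with 20.8% and 28.2% as short or shorter.

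The direction of transcription relative to the breakpoint was mixed. The promoter table gives a strand for 6 of the 10 genes, and 4 of these lay inside a zone to the side of its breakpoint. Cdk1 and Cdk2 were transcribed away from the breakpoint, Ccne1 and Ccnb1 toward it. Among protein-coding genes placed in the same way, 60.0% of 4764 were transcribed away from the breakpoint. A count of 2 of 4 gives no basis for a difference from that share.

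Of 70 related genes in 6 lists, 39 lay at most 20 kb from a zone (55.7%, against 38.5% of protein-coding genes), and 33 reached into one, against 32.4% of protein-coding genes. The lists differed in these shares, and no test was made. Retinoblastoma and E2F genes had 8 of 13 inside a zone, to be read against the same 32.4%, with E2f5 and E2f3 at 10.2 and 20.1 kb from a breakpoint and E2f4 farthest, 231 kb from a zone. CDK inhibitors had 5 of 7 inside, though Cdkn2a and Cdkn2b share a zone and are not independent. Cdkn2a and Cdkn2c, which code for inhibitors of Cdk4 and Cdk6, lay 0.973 and 13.4 kb from a breakpoint. Cdkn1a, the p53 target, was 451 kb from a zone. Genes of cyclin turnover had 5 of 9 inside, with 6 at most 20 kb away. Cul1, a ubiquitin ligase scaffold that marks cyclin E for destruction, lay 3.23 kb and Fzr1, an activator of the anaphase-promoting complex, 9.38 kb from a breakpoint, whereas the F-box gene Skp2 lay 222 kb from a zone.

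Other cyclins and CDKs had lower shares inside zones than the 10 named genes, a difference that was not tested. Many of them act in transcription and not in the cell cycle, but shares were not compared by role. Of 17 other cyclins, 7 reached into a zone (41.2%, against 32.4% of protein-coding genes). At most 20 kb from a zone lay 8 of them (47.1%, against 38.5%). Ccnl1 and Ccnc, cyclins of splicing and of the Mediator complex, lay 7.59 and 12.4 kb from a breakpoint and Ccnh, the partner of Cdk7, 1129 kb from a zone. Of 16 other CDKs, 5 had an end inside a zone, a share of 31.2% that is near the 32.4% of all protein-coding genes. Within 20 kb of a zone were 8 of these CDKs (50%, against 38.5%). Cdk12, which phosphorylates RNA polymerase, and Cdk5, a kinase of neurons, lay 5.93 and 6.91 kb from a breakpoint, and the Mediator kinase gene Cdk8 was 588 kb from a zone. The partners of the D-type cyclins, named after their values were seen, parted: Cdk6 had an end inside a zone at 13.5 kb from its breakpoint, and Cdk4 lay 83.7 kb from a zone. Among regulators of CDK phosphorylation, 3 of 8 were inside (37.5%, against 32.4%) and 4 within 20 kb (50%, against 38.5%). The phosphatase genes Cdc25b and Cdc25a lay 1.99 and 18.6 kb from a breakpoint and Cks2, which encodes a CDK-binding subunit, 126 kb from a zone.

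**Figure D5:**
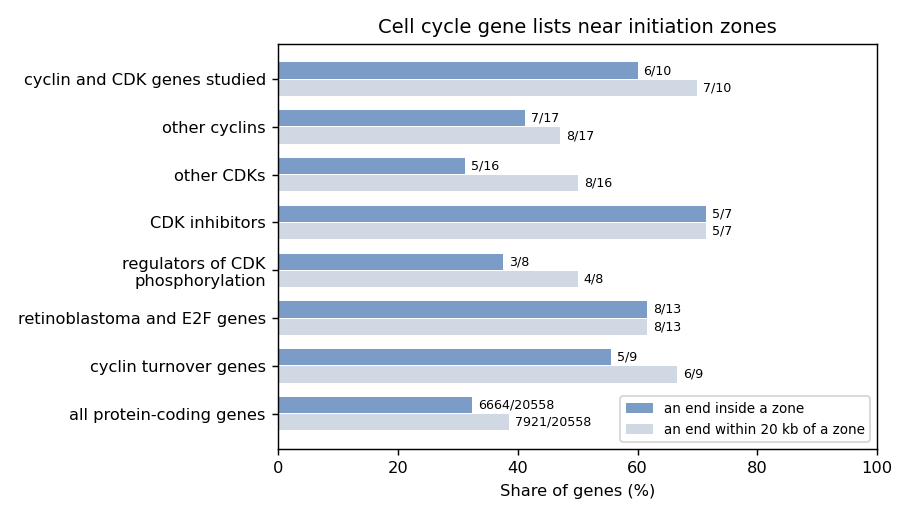
Share of genes (horizontal axis, %) with an end inside a zone (dark bars) and within 20 kb of a zone (pale bars), for the 10 named genes, the 6 related lists and all protein-coding genes, with counts at the bars. The CDK inhibitors (5 of 7) and retinoblastoma and E2F genes (8 of 13) stand beside the named genes (6 of 10), and other CDKs (5 of 16) beside all protein-coding genes.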

How the data were processed

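The deposited file is a list of initiation zones from 1 wild-type OK-seq library, given as positions and as distances in bp; it carries neither read counts nor signal. Per the submitters' processing notes, reads were handled on build mm10 with bcl2fastq, SAMtools and Bowtie as well as Trim Galore 0.4.2, Picard 2.8.2 and BWA 0.7.13, with roles and settings not given in the sources used here. Each entry, per the file headers, has a breakpoint bin, a minimum to its left and a maximum to its right, and how these were called is not stated there. The width matched the sum of both arms in all 2844 entries.

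Gene positions came from the RefSeq gene table of GRCm38.p6 (the build of mm10), which gives no strand, so the nearer end of a gene was used. Entries on scaffolds or starting before 3 Mb were left out (348). Strand came from the RefSeq promoter table, which covered 80.05% of protein-coding genes. Distances were computed with Python 3.11.15, numpy 2.4.6 and pandas 2.3.3, and checked on simulated zones and genes. Genes of related lists were named by a rule: in each list, the 2 genes inside a zone nearest to a breakpoint and the 1 gene farthest from a zone. The members, lists and rule were chosen with earlier results of these data known. No p-value was computed. Ccnb3 and Cdk16 lie outside chromosomes 1 to 19 and were not analysed here, and protein sequences were not used here.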

Additional observations from a re-analysis of the deposited data

How the results depend on the processing

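All 32 recomputed summary values stayed within 1.5 times of the reported ones, and the count of 4 in the central part of zones lay at that limit. Some of the 32 could not move. Beside genes of all kinds only the background changed, to 24.8% inside a zone and 30.4% within 20 kb. The values by transcription start rest on fewer genes. The count of named genes inside a zone was 6 of 10 with gene midpoints, against 22.5% of all protein-coding genes. It was also 6 with any overlap of the gene body (32.9%) or with zones less than 10 kb apart merged (32.4%). It was 5 without zones narrower than the median (Cdk2 lost), against 20.1% of all protein-coding genes. Without zones that have an arm at 100 kb it was also 5 (Ccnb1 lost), against 27.9%. In the central part of zones it was 4 (Ccnd3 and Ccne1 lost), against 19.5%. Ccnd3 was lost by its ends, 43.4 and 51.2 kb from the breakpoint, although the gene covers that breakpoint. By transcription start, 5 of the 6 genes with a strand were inside, against 28.1% of protein-coding genes. The genes without a strand were Ccnd2, which lies inside a zone, and Ccnd1, Ccne2 and Ccna2, which lie outside. The count by start is therefore not comparable with the count over all 10 genes. The count near a zone was 7 at limits of 5, 10 and 50 kb, against 34.2%, 35.7% and 45.4% of protein-coding genes. It was 6 without the narrower zones (23.4%) and without zones that have an arm at 100 kb (33.3%), and 5 of 6 by transcription start (33.9%). Related genes near a zone numbered from 28 of 70 without the narrower zones (23.4% of all protein-coding genes) to 43 of 70 at 50 kb (45.4%), with 28 of 58 by transcription start (33.9%). The median distance to a breakpoint, 45.5 kb as reported, was 42.3 kb to the point midway between zone edges and 42.2 kb from gene midpoints. From the transcription start it was 35.7 kb, but over only the 6 genes with a strand, without Ccne2 and Ccna2, the farthest of the 10. Among those 6, Ccne1 (57.0 kb) and Ccnb1 (28.0 kb) were farther by start than by the nearer end, and the others were unchanged. Of 26 distances of single genes under these settings, 20 stayed within 1.5 times. The other 6 were Cdk2 (20.4 kb) and Ccnd2 (39.2 kb) to the midway point, and Cdk2 (8.01 kb), Cdk1 (23.5 kb), Ccnd2 (32.2 kb) and Ccnd3 (3.87 kb) from gene midpoints. Counting genes that overlap a zone in place of those with an end inside, chosen after the data were seen, left the median at 3.5 genes. No paired analysis was possible because 1 library was analysed, and for the same reason no replicate could be left out. Depth is unknown, so weak or narrow zones that were missed cannot be counted, and the limit of 100 kb on arms may cut wide zones.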

Other observations

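Some related genes shared a zone or a nearest zone, as chosen after their values were seen. The CDK inhibitor genes Cdkn2a and Cdkn2b lay wholly inside the same zone of chromosome 4 (89184001 to 89372000, 187 kb wide), at 0.973 and 32.8 kb from its breakpoint. Ccnl2 and Cdk11b, genes of a cyclin and a kinase linked to RNA splicing, had the same nearest zone, with Cdk11b 0.066 kb and Ccnl2 21.2 kb beyond its edge. The distance of Cdk11b is below the bin of 1 kb, so it cannot be placed on either side of the edge. Ccni and Ccng2 also shared a nearest zone on chromosome 5, at 83.9 and 169.6 kb from it.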
